A study of Mus musculus with 45 samples.

Results

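The MCM helicase genes studied here were Mcm2, Mcm3, Mcm4, Mcm5, Mcm6, Mcm7, Mcm8 and Mcm10, 8 of the 19966 genes in the deposited count table, matched by Ensembl ID. They were followed in 45 whole-liver poly(A) RNA-seq libraries from C57Bl/6 mice on a normal diet, aged 8 to 12 weeks at a 2/3 partial hepatectomy (PHx), the surgical removal of most of the liver, after which the remnant regrows. The genotypes were wild type (WT) and Uhrf1hepKO (KO), by its name a loss of Uhrf1 in hepatocytes; the Cre driver and any allele of the WT mice were not given in the sources used here. Uhrf1 encodes a protein that brings DNA methyltransferase activity to newly copied DNA. The samples of each genotype cover a group labelled baseline and 7 times after PHx, namely 24, 30, 40, 48 and 96 h, 7 days and 4 weeks. Of the 16 groups 13 hold 3 libraries and 3 hold 2, which are the WT groups of 30 h and 48 h and the 7 day KO group. The labels do not say that libraries came from separate animals, so p-values speak for the spread among these libraries alone, part of which may be technical. The baseline columns carry the prefix of the 40 h set, and the labels do not say whether both came from the same mice.

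The products of Mcm2 to Mcm7 form a ring of 6 related ATPases that is loaded onto replication origins in G1 and becomes the core of the replicative helicase when cells enter S phase. Their genes are known targets of E2F transcription factors and are expressed at low levels in resting liver, where hepatocytes rarely divide. Partial hepatectomy drives most hepatocytes to replicate their DNA within days, so MCM transcripts are a common marker of that entry. Mcm8 belongs to the same ATPase family but acts with Mcm9 in homologous recombination, and Mcm10 is unrelated in sequence to the ring subunits and is needed to start the assembled helicase. In whole-liver RNA, fewer cells expressing a gene and less of its RNA per cell cannot be told apart.

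The genes lie apart in the genome, except that Mcm3 and Mcm6 share chromosome 1 and Mcm8 and Mcm10 share chromosome 2. In GENCODE M21 on GRCm38, the assembly also called mm10, all 8 are protein coding: Mcm2 at chr6:88883474-88898780, Mcm3 at chr1:20802968-20820312, Mcm4 at chr16:15623897-15637400, Mcm5 at chr8:75109569-75128439, Mcm6 at chr1:128331590-128359664, Mcm7 at chr5:138164583-138172422, Mcm8 at chr2:132816141-132844197 and Mcm10 at chr2:4989714-5012791. Mcm7 shares 421 bases with Ap4m1 and 64 bases with Cops6 on the opposite strand and hosts the microRNA genes Mir25, Mir93 and Mir106b. The strand setting of the counting was not given in the sources used here, so reads from those shared stretches cannot be assigned to Mcm7 alone. The other 7 genes overlap no annotated gene.

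Promoter windows of 300 bases, 250 before and 50 from the start on, were taken from RefSeq (GRCm38.p6) for 7 of the 8 genes, all but Mcm4, with a pair of start sites for Mcm7. Core E2F letters were taken as TTTGGCG or any of its variants, namely the form TTTCCCG, then the form TTTCGCG and last the form TTTGCCG, on either strand. They occurred in 6 of these 7 genes, Mcm3, Mcm5, Mcm6, Mcm7, Mcm8 and Mcm10, against 6.7% of all 32851 windows in the table. The CCAAT box (CCAAT on either strand) occurred in all 7 genes, against 37.4% of all windows. The CHR element of mitotic promoters (TTTGAA on either strand) occurred in 1, Mcm2, against 17.9% of all windows. The 250 bases before the start are printed for Mcm5 and Mcm6, the genes with the largest changes after surgery, and for Mcm10, which was high at rest. Capitals mark E2F letters and CCAAT boxes on either strand.
Mcm5, chr8:75109259-75109508, plus strand: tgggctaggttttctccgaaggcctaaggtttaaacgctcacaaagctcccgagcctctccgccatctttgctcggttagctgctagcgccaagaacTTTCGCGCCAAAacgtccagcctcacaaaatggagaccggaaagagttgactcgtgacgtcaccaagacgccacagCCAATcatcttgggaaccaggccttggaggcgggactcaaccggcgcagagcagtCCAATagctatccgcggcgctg
Mcm6, chr1:128359706-128359955, minus strand: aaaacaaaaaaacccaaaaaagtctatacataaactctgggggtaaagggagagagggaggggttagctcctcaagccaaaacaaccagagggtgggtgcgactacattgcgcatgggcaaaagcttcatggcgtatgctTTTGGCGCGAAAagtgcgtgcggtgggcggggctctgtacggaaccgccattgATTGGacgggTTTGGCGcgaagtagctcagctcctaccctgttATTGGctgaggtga
Mcm10, chr2:5012792-5013041, minus strand: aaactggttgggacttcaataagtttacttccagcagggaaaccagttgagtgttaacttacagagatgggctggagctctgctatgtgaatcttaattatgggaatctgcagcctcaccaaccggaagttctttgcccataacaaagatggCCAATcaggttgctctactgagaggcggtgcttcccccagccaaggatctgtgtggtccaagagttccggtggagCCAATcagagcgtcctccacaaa
Mcm5 and Mcm6 each held a pair of E2F matches on opposite strands that overlap by 2 bases, and Mcm6 held 1 more close to its start. The single E2F match of Mcm10 lay after the start, at bases 43 to 49 counted from the first transcribed base as 0, outside the printed stretch. The E2F matches of Mcm3 (bases 20 to 26 and 38 to 44) and Mcm8 (40 to 46) also lay only after the start. A match is a description of letters, not of binding.

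**Figure D1:**
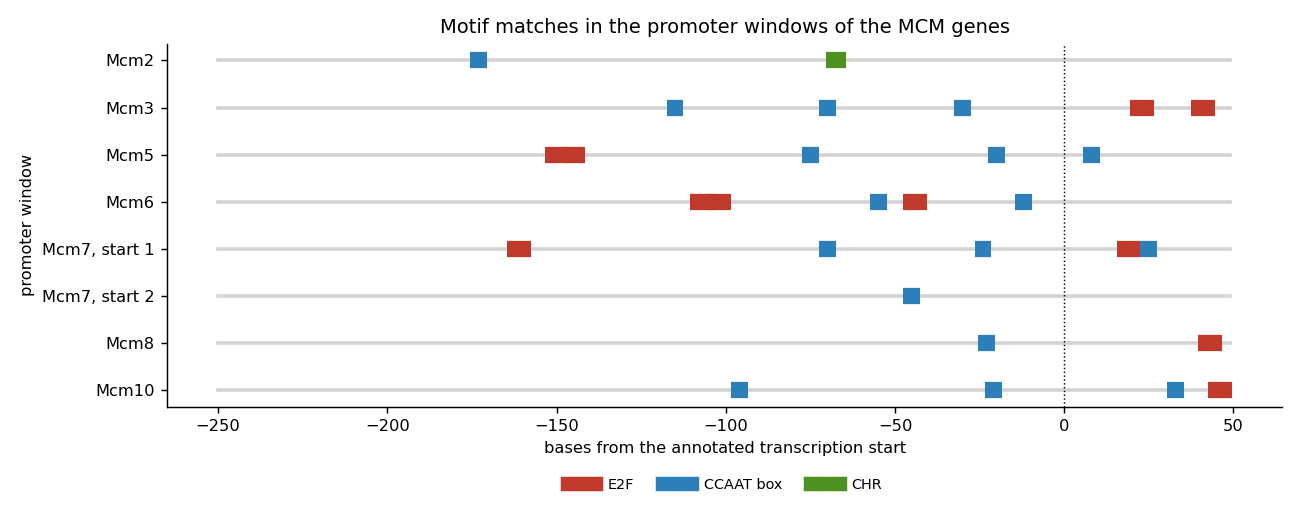
Positions of E2F letters (red), CCAAT boxes (blue) and the CHR element (green) in the promoter windows, in bases from the annotated start (dotted line), 1 row per window. Mcm5 and Mcm6 have E2F letters upstream, at -153 to -142 and at -110 to -99. Mcm3, Mcm8 and Mcm10 have them only after the start, and Mcm2 has none.

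Total counts ran from 12851359 to 23133501 per library. Levels are CPM, counts brought to the same library size with scaling by the trimmed mean of M-values (TMM), and differences are log2 fold changes from edgeR's quasi-likelihood test, called where the p, adjusted over the 14090 genes tested by the Benjamini-Hochberg method, was under 0.05. Hepatocyte markers dominated every library, at 77894 to 360408 CPM summed over 12 genes, against at most 866 CPM for 12 Kupffer cell genes and 8.99 CPM for 12 lymphocyte genes. Uhrf1 was lower in KO at 40 h (-3.52 ± 0.50 log2 (SE), edgeR adjusted p = 0.000314), at 64.9, 27.5 and 107 CPM in WT against 4.85, 8.95 and 3.59 CPM in KO. It was -1.33 ± 0.50 log2 at 30 h, where the 2 WT libraries held 36.5 and 28.0 CPM and the 3 KO libraries 8.87, 14.6 and 15.2 CPM (edgeR adjusted p = 0.261). The libraries labelled WT at 96 h went against their label. Bglap3, at most 1.53 CPM in the other 19 WT libraries and at least 3.18 CPM in the other 20 KO libraries, was at 9.38 to 28.4 CPM in them. The estimate for Uhrf1 in the libraries labelled KO against those labelled WT was 1.73 ± 0.83 log2 (edgeR adjusted p = 0.165). It rests on few counts, 3, 27 and 31 under the KO label and 13, 2 and 4 under the WT label. KO replicate 1 lay within the range of the libraries labelled WT. All 96 h values are therefore given for libraries as labelled.

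The ring subunit genes other than Mcm7 were near silent at baseline, and all 6 rose by 24 h in both genotypes. Mcm7 was at 10.1 to 13.3 CPM at WT baseline. Mcm5, which with Mcm2 forms the gate through which DNA enters the ring, had the lowest resting level of the 6 by FPKM and the largest change. In WT liver it stood at 1.75, 2.07 and 1.38 CPM at baseline, 17.2, 9.28 and 8.84 CPM at 24 h, 75.3 and 54.9 CPM at 30 h, 154, 105 and 215 CPM at 40 h and 62.7 and 60.7 CPM at 48 h. In KO liver it stood at 1.83, 2.29 and 2.37 CPM at baseline, 25.3, 9.56 and 9.95 CPM at 24 h, 126, 147 and 141 CPM at 30 h, 99.0, 151 and 80.6 CPM at 40 h and 80.1, 48.9 and 59.8 CPM at 48 h. Every library from 24 to 48 h was above every baseline library of its genotype. The means ranked 40 h, 30 h, 48 h from the highest down in WT and 30 h, 40 h, 48 h in KO, though 30 h and 40 h libraries overlapped in KO. Against baseline, Mcm5 was 6.50 ± 0.55 log2 higher at 40 h in WT, a 90.6-fold rise (edgeR adjusted p = 4.9e-11), and 5.98 ± 0.53 log2 higher at 30 h in KO (edgeR adjusted p = 3.33e-10).

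Mcm6, a ring subunit that can form a subcomplex with Mcm4 and Mcm7, followed the same course. WT libraries held 2.77, 3.43 and 2.52 CPM at baseline, 22.5, 10.8 and 11.7 CPM at 24 h, 74.9 and 57.8 CPM at 30 h, 165, 102 and 212 CPM at 40 h and 46.8 and 65.0 CPM at 48 h. KO libraries held 3.45, 2.72 and 4.22 CPM at baseline, 26.3, 15.7 and 13.8 CPM at 24 h, 147, 166 and 164 CPM at 30 h, 97.4, 148 and 76.6 CPM at 40 h and 91.1, 35.4 and 53.6 CPM at 48 h. In WT the 40 h libraries were all above the 30 h libraries, while in KO the 30 h and 40 h libraries overlapped. The largest changes were 5.77 ± 0.51 log2 at 40 h in WT (edgeR adjusted p = 1.09e-10) and 5.51 ± 0.49 log2 at 30 h in KO (edgeR adjusted p = 4.48e-10).

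Mcm7, the third member of that subcomplex, had the highest resting level of the ring genes by FPKM and the smallest change. It stood at 10.1, 10.6 and 13.3 CPM at baseline in WT, 23.9, 19.1 and 19.7 CPM at 24 h, 62.6 and 47.1 CPM at 30 h, 105, 78.9 and 142 CPM at 40 h and 58.2 and 52.2 CPM at 48 h. In KO it stood at 10.3, 12.1 and 11.8 CPM at baseline, 30.1, 20.7 and 16.8 CPM at 24 h, 89.1, 111 and 115 CPM at 30 h, 74.6, 105 and 68.5 CPM at 40 h and 73.6, 48.7 and 53.0 CPM at 48 h. Its levels at 30 h and 48 h overlapped in WT, and all 3 WT libraries at 40 h were above both. The change from baseline reached 3.27 ± 0.22 log2 at 40 h in WT (edgeR adjusted p = 3.98e-14) and 3.20 ± 0.21 log2 at 30 h in KO (edgeR adjusted p = 1.04e-12).

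Mcm2, whose tail binds histones at the fork, Mcm3, through which the ring is brought to the loader, and Mcm4, a main target of the kinase that starts replication, had changes between these extremes. Mcm2 rose from 1.53, 2.22 and 2.52 CPM at baseline in WT to 66.0, 37.6 and 94.3 CPM at 40 h, and from 2.39, 2.72 and 2.27 CPM in KO to 66.9, 87.3 and 75.3 CPM at 30 h. Mcm3 rose from 4.09, 3.79 and 2.52 CPM in WT to 74.4, 42.1 and 110.0 CPM at 40 h, and from 3.24, 3.58 and 3.81 CPM in KO to 79.2, 98.7 and 95.6 CPM at 30 h. Mcm4 rose from 3.36, 3.36 and 4.13 CPM in WT to 59.1, 31.9 and 85.2 CPM at 40 h, and from 2.67, 2.66 and 2.99 CPM in KO to 64.1, 80.1 and 73.2 CPM at 30 h. For Mcm2, Mcm3 and Mcm4 the WT libraries at 30 h and 40 h overlapped, so the order of these neighbouring times does not exceed their spread. In KO the means at 30 h and 40 h were 76.5 ± 10.3 and 41.6 ± 17.1 CPM for Mcm2 (SD, n = 3). They were 91.2 ± 10.4 and 48.5 ± 20.6 CPM for Mcm3 and 72.5 ± 8.06 and 38.5 ± 16.6 CPM for Mcm4 (SD, n = 3). For Mcm2, Mcm3 and Mcm4 every KO library at 30 h was above every KO library at 40 h, which held at most 61.0, 72.3 and 57.6 CPM. No test compared 30 h with 40 h within KO. In WT the highest changes from baseline were 4.98 ± 0.44, 4.44 ± 0.41 and 4.02 ± 0.41 log2 for Mcm2, Mcm3 and Mcm4, all at 40 h.

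**Figure D2:**
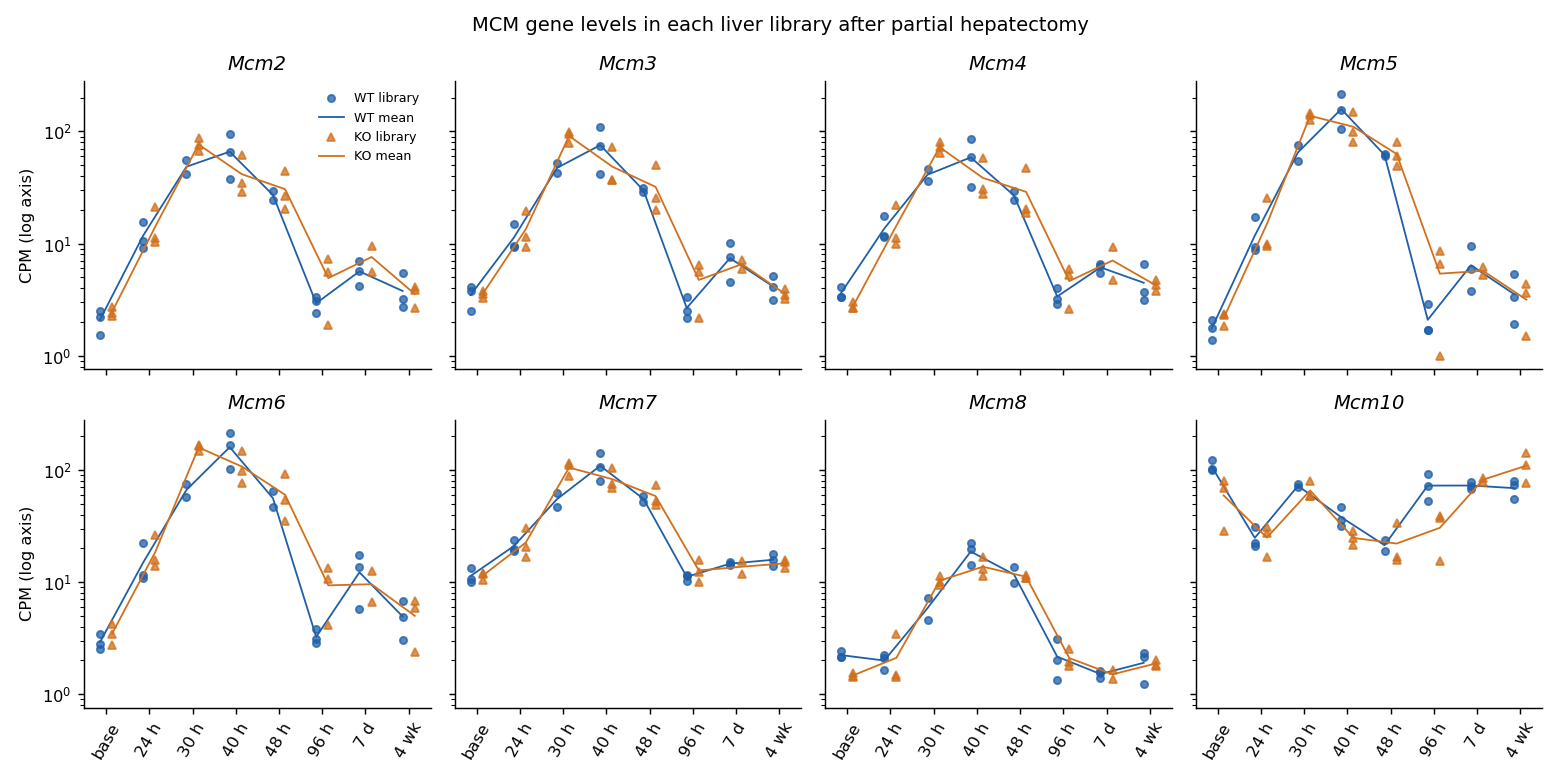
Level of each MCM gene (CPM, log axis) in every library by time after surgery; circles are WT and triangles KO libraries, and lines join group means. Mcm2 to Mcm7 climb over a narrow window, with the highest WT mean at 40 h and the highest KO mean at 30 h, whereas Mcm10 starts high and is lowest at 48 h.

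Set against all genes, 6 of the 8 members rose at 24 h in WT, where 10.5% of genes tested rose, and 6 rose in KO, where 11.5% did. The 6 were Mcm2 to Mcm7, with log2 changes from 0.89 to 2.76 in WT and from 0.98 to 2.78 in KO. All members but Mcm10 rose at 30 h (9.33% of genes in WT and 17% in KO), at 40 h (19.2% and 17.9%) and at 48 h (15.6% and 19%). The median change over the 8 members was 4.23 log2 at 40 h in WT and 4.69 log2 at 30 h in KO, against medians over all genes of -0.003 and -0.017. All comparisons with baseline within a genotype share the same 3 baseline libraries, so they are not independent of each other.

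At 96 h the estimates against baseline ran from -0.57 to 0.50 log2 over the 8 members in the libraries labelled WT, with 0 of 8 called by edgeR or DESeq2 and 0 at an unadjusted p under 0.05, where edgeR called 27.4% of genes and 38.2% had such a p. At 7 days Mcm6 was the only member called in WT, at 5.74, 13.5 and 17.4 CPM (2.07 ± 0.49 log2, edgeR adjusted p = 0.0137), where 2.25% of genes rose. Mcm2 was the only member called in KO at 7 days, at 9.56 and 5.63 CPM (1.63 ± 0.47 log2, edgeR adjusted p = 0.0362), where 3.06% of genes rose. Estimates at 7 days were above 0 for 6 of 8 members in WT and 8 of 8 in KO. The medians over the 8 members were 0.93 and 1.12 log2, against -0.011 and -0.002 over all genes. In WT, Mcm5 and Mcm2 were just short of a call (1.89 ± 0.56 and 1.45 ± 0.46 log2, edgeR adjusted p = 0.0528 and 0.0728). The Mcm6 call was lost without WT baseline replicate 3, WT 7 day replicate 2 or WT 7 day replicate 3 (edgeR adjusted p 0.0651 to 0.0847). In WT at 7 days 12 of 12 Kupffer cell genes had estimates above baseline, at 264 to 646 CPM summed against 137 to 212 CPM, and 9 of 9 tested neutrophil and monocyte genes, at 55.2 to 105 CPM against 15.9 to 27.0 CPM. Stellate cell genes summed to 222 to 278 CPM there, against 309 to 361 CPM at WT baseline. The Mcm2 call was lost without any 1 of its 5 libraries (edgeR adjusted p 0.0771 to 0.239). In KO at 7 days 0 of 11 endothelial and 0 of 11 stellate cell genes had estimates above baseline, at 143 to 223 CPM against 301 to 334 CPM and 147 to 225 CPM against 326 to 519 CPM, while 8 of 9 neutrophil and monocyte genes had, at 44.9 to 49.4 CPM against 32.2 to 41.0 CPM. Summed erythroid genes were at 353 to 379 CPM in KO at 7 days against 207 to 289 CPM at baseline. Lymphocyte genes were at 3.46 to 4.52 against 5.31 to 8.50 CPM and hepatocyte genes at 115882 to 130300 against 101787 to 110801 CPM. The part of these markers in the calls was not tested. At 4 weeks edgeR called 0 of 8 members in either genotype, with 1 at an unadjusted p under 0.05 in each, and DESeq2 called 0 in WT and 1 in KO. Of all genes edgeR called 1.17% there in WT and 8.57% in KO, with 13.9% and 25.5% at an unadjusted p under 0.05.

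**Figure D3:**
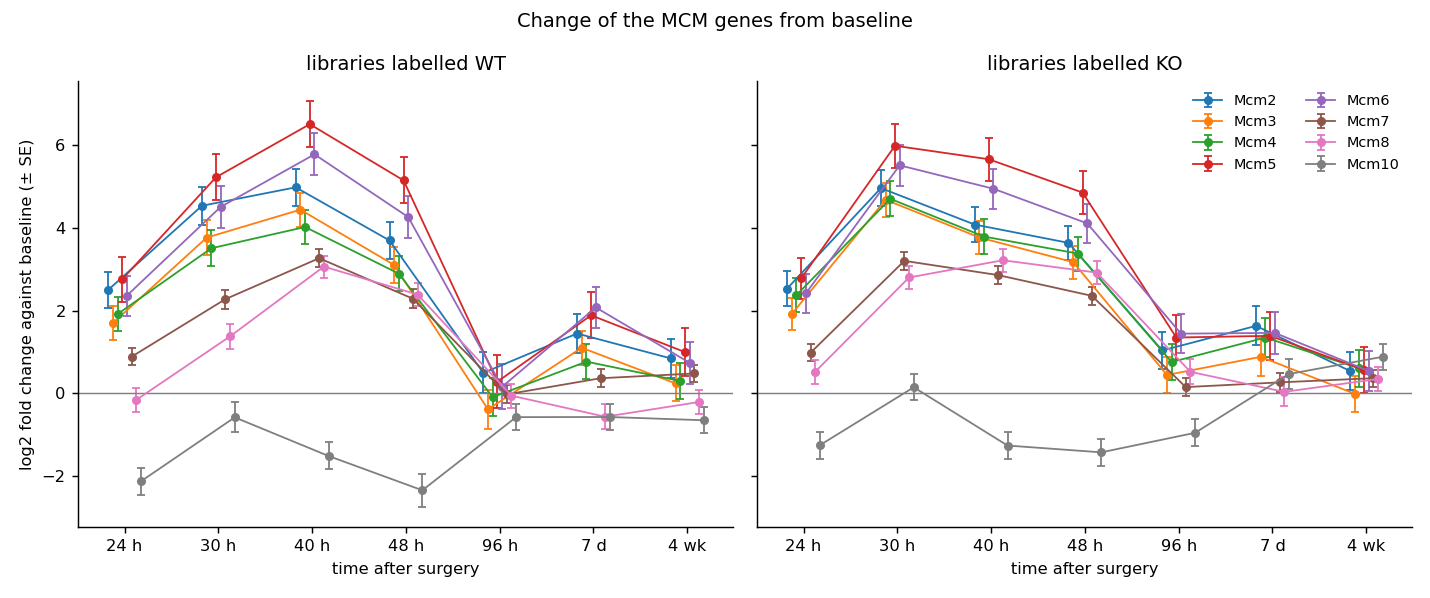
Log2 fold change from baseline (± SE) of each member at the 7 times after surgery, for libraries labelled WT (left) and KO (right). Mcm5 is the highest curve at 40 h in WT (6.50) and at 30 h in KO (5.98), and Mcm8 joins the rise later than Mcm2 to Mcm7. Mcm10 lies below 0 at all 7 times in WT and at 24, 40, 48 and 96 h in KO.

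Mcm8, the recombination helicase, was not called at 24 h, when the ring genes had already risen, and rose from 30 h on. WT libraries held 2.41, 2.15 and 2.14 CPM at baseline and 2.11, 1.65 and 2.22 CPM at 24 h, and KO libraries 1.55, 1.42 and 1.44 CPM and 3.44, 1.47 and 1.42 CPM. The groups overlapped in WT, 1 KO library was high at 24 h, and edgeR called neither change (-0.16 ± 0.29 log2, adjusted p = 0.756, and 0.53 ± 0.29 log2, adjusted p = 0.205). It then reached 7.16 and 4.54 CPM at 30 h, 19.6, 14.1 and 22.5 CPM at 40 h and 13.6 and 9.74 CPM at 48 h in WT, and 9.43, 11.4 and 9.99 CPM, 11.2, 16.7 and 13.2 CPM and 10.9 to 11.6 CPM at these times in KO. Its highest mean was at 40 h in both genotypes, 3.06 ± 0.27 log2 above baseline in WT (edgeR adjusted p = 1.52e-11) and 3.22 ± 0.27 log2 in KO (edgeR adjusted p = 1.04e-11). The rise at 30 h in WT (1.38 ± 0.29 log2, edgeR adjusted p = 0.00086) was lost without WT 30 h replicate 2 (adjusted p = 0.0575).

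Mcm10, the activator of the assembled helicase, was high at rest and fell at 24, 40 and 48 h. WT libraries held 103, 99.1 and 122 CPM at baseline, 20.9, 31.1 and 22.3 CPM at 24 h, 69.8 and 74.6 CPM at 30 h, 31.5, 35.5 and 46.5 CPM at 40 h and 18.7 and 23.9 CPM at 48 h. The resting level was thus above every later WT library, and the 24 h, 40 h and 48 h libraries were all below the 30 h ones. Mcm10 fell at 24 h by 2.12 on the log2 scale (SE 0.33, edgeR adjusted p = 1.74e-05), at 40 h by 1.51 (SE 0.33, edgeR adjusted p = 0.000429) and at 48 h by 2.34 (SE 0.39, edgeR adjusted p = 2.09e-05), where 11.9%, 17.3% and 15.4% of genes fell. At 30 h the difference from baseline was -0.58 ± 0.36 log2 (edgeR adjusted p = 0.296).

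In KO the Mcm10 baseline was spread, at 80.3, 28.7 and 68.6 CPM. Later KO libraries held 27.1, 30.9 and 16.7 CPM at 24 h, 58.3, 79.6 and 59.1 CPM at 30 h, 24.5, 28.3 and 21.5 CPM at 40 h and 33.7, 15.9 and 16.6 CPM at 48 h. KO baseline replicate 2 lay within the range of the 24 h and 48 h libraries, and 30 h again stood above 24, 40 and 48 h. Its 30 h level overlapped the KO baseline (0.15 ± 0.32 log2, edgeR adjusted p = 0.755). Mcm10 fell in KO by 1.25 on the log2 scale at 24 h (edgeR adjusted p = 0.00517), by 1.26 at 40 h (edgeR adjusted p = 0.00285) and by 1.42 at 48 h (edgeR adjusted p = 0.000879), where 12.2%, 17.7% and 17% of genes fell. The 24 h call was lost without KO baseline replicate 1 (edgeR adjusted p = 0.0517), and the calls at 24 h and 48 h were lost in fits of the compared libraries alone (edgeR adjusted p = 0.112 and 0.0522). Mcm10 stood at 67.6 to 78.3 CPM in WT and 78.8 to 85.0 CPM in KO at 7 days, and at 54.7 to 78.9 CPM and 76.6 to 140.3 CPM at 4 weeks. All of these WT libraries were below the WT baseline libraries, with no call by edgeR (adjusted p = 0.369 at 7 days and 0.36 at 4 weeks).

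Across the 16 group means of log2 CPM, Pearson's r among Mcm2 to Mcm7 ran from 0.965 to 0.995 over 15 pairs. Mcm8 correlated with them at 0.864 to 0.949 and Mcm10 with the other 7 at -0.503 to -0.432. By rank, Spearman's rho was lower for Mcm8 with Mcm2 to Mcm7, at 0.641 to 0.697, than among Mcm2 to Mcm7, at 0.921 to 0.994. These are descriptions over 16 means that share libraries and scaling. In some groups the ring genes also shared the order of the replicates: WT 40 h replicate 3 was the highest and replicate 2 the lowest for all 6, and KO 48 h replicate 1 was the highest and replicate 2 the lowest for all 6. At 24 h replicate 1 was the highest for all 6 in both genotypes. The ratio of the highest to the lowest library within a group was 1.80 to 2.67 at 40 h in WT, but 1.13 to 1.30 at 30 h in KO and up to 8.63 in the libraries labelled KO at 96 h. Over the 16 groups, 3 to 6 of the 6 genes had their highest level in the same replicate, with 3 in WT at baseline and at 7 days.

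Length-scaled levels, the deposited FPKM values (fragments scaled by transcript length and by library size), compared the ring subunits with each other. At baseline the highest subunit in WT was Mcm7 at 3.44 ± 0.33 FPKM and the lowest Mcm5 at 0.408 ± 0.10 FPKM (SD, n = 3), a ratio of 8.43 between mean levels. The ratio of the highest to the lowest mean was 2.00 at 30 h and 3.40 at 40 h in WT, and 2.71 and 3.47 in KO. At 40 h the order of mean FPKM levels in both genotypes was Mcm6, Mcm5, Mcm7, Mcm3, Mcm2, Mcm4, with 51.4 ± 17.2 FPKM for Mcm6 and 15.1 ± 6.61 FPKM for Mcm4 in WT (SD, n = 3). Neighbours in that order overlapped between libraries, while Mcm6 and Mcm4 did not. Within each single library at 40 h the same order held, apart from Mcm5 and Mcm7. Mcm7 was above Mcm5 in WT replicate 2 (30.5 and 28.8 FPKM) and in KO replicate 3 (23.8 and 22.4 FPKM). Mcm10 had 61.3 ± 5.61 FPKM in resting WT liver (SD, n = 3).

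**Figure D4:**
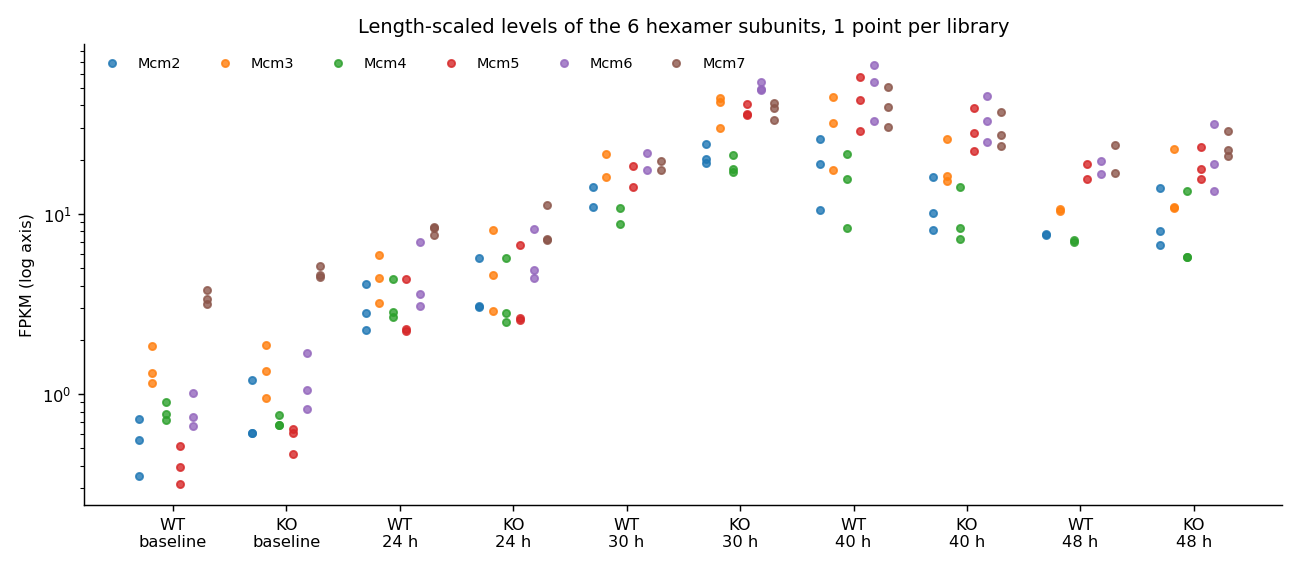
Deposited FPKM (log axis) of the 6 ring subunit genes, 1 point per library, from baseline to 48 h. Mcm7 stands apart above the others at baseline (3.44 FPKM in WT), and Mcm4 has the lowest mean from 30 h on (15.1 FPKM in WT at 40 h).

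Dividing CPM of the library total by FPKM gives a length in kb, called the implied length here. It also carries any difference between the deposited counts and FPKM in how reads were assigned. The median over 45 libraries was 1.69 kb for Mcm10, against 3.33 kb for Mcm6 and 4.14 kb for Mcm4. For Mcm4 this is above the 3589 bases of its longest annotated coding transcript and of all its exons together. The implied length is thus not a measured transcript length. The annotation lists 2 coding transcripts of Mcm10, of 3494 and 4867 bases, and 8 others of 508 to 2475 bases. For Mcm10 the implied length was 1.63 to 1.74 kb in WT at baseline, 1.82 to 2.80 kb in WT at 40 h and 1.94 to 2.46 kb in WT at 48 h, while that of Mcm6 was 3.44 to 3.54 kb, 3.25 to 3.34 kb and 3.27 to 3.37 kb. Which Mcm10 transcript the reads came from was not tested, since the values used here are 1 per gene.

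The comparison of genotypes at each time asks how the course of these genes differs between Uhrf1hepKO and WT livers. At 30 h every KO library was above both WT libraries for the 6 ring genes and Mcm8, 7 of the 8 members, and 15.4% of all genes showed this in that direction. The mean KO level was 2.39 times the WT mean for Mcm6, 2.12 times for Mcm5, 1.93 times for Mcm3 and 1.58 times for Mcm2. By edgeR 1 of the 8 members passed, Mcm7 at 0.94 ± 0.22 log2 (adjusted p = 0.0286), where 0.937% of all genes passed. The other 6 lay between 0.66 ± 0.39 log2 for Mcm2 and 1.26 ± 0.45 log2 for Mcm6, with edgeR adjusted p from 0.181 to 0.591. At an unadjusted p under 0.05 were 6 members, where 10.7% of all genes were. Mcm10 was at -0.14 ± 0.35 log2 (edgeR adjusted p = 0.947).

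The Mcm7 call rests on few libraries, and with the 5 libraries fitted alone Mcm3, Mcm5 and Mcm6 passed instead (edgeR adjusted p = 0.0369, 0.034 and 0.0206, and 0.0563 for Mcm7). It was kept without KO 30 h replicate 1 and lost without WT 30 h replicate 2 (edgeR adjusted p = 0.0734), WT 30 h replicate 3 (0.584), KO 30 h replicate 2 (0.0875) or KO 30 h replicate 3 (0.0951). Of the markers of other cell types, the summed levels overlapped between the genotypes at 30 h for all lists but the erythroid one, at 90.8 to 169 CPM in WT and 213 to 237 CPM in KO, where 4 of 5 tested genes had no overlap. Its part in the difference was not tested.

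At 40 h the estimated difference was below 0 for all 8 members, opposite to 30 h for the 6 ring genes and Mcm8. Estimates ran from -0.40 ± 0.19 log2 for Mcm7 to -0.67 ± 0.34 log2 for Mcm2, and 0 of 8 were called by edgeR (adjusted p 0.878 to 0.984), DESeq2 or limma, with 1, Mcm7, at an unadjusted p under 0.05. At this time 0.142% of all genes passed and 5.59% had an unadjusted p under 0.05. The groups overlapped for 7 of the 8 members, and only Mcm10 had all KO libraries below all WT libraries, as 6.45% of genes did. Erythroid markers were at 259 to 325 CPM in WT and 171 to 234 CPM in KO, and 12 of 12 Kupffer cell genes had higher estimates in KO, at 72.5 to 209.6 CPM summed in WT and 200.2 to 359 CPM in KO. The summed lymphocyte genes, at most 2.65 CPM in WT and at least 2.81 CPM in KO, also did not overlap. The part of these markers in the result was not tested.

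The change of the genotype difference from 30 to 40 h was negative for all 8 members, with a median of -1.38 log2 against -0.029 over all genes. Mcm7 passed at -1.33 ± 0.29 log2 (edgeR adjusted p = 0.0254), where 0.582% of all genes passed. Mcm6 had the largest estimate, -1.83 ± 0.59 log2 (edgeR adjusted p = 0.167), and 7 members were at an unadjusted p under 0.05, where 10.6% of genes were. The mean level of Mcm6 at 40 h was 2.41 times that at 30 h in WT and 0.676 times in KO, and that of Mcm2 was 1.36 and 0.543 times. The Mcm7 call was lost without any 1 of WT 30 h replicate 3, KO 30 h replicates 2 or 3, WT 40 h replicates 1 or 3, or KO 40 h replicates 1 or 3 (edgeR adjusted p 0.0569 to 0.444), and without WT 40 h replicate 2 Mcm3, Mcm7 and Mcm8 passed. The change from 24 to 30 h was called for 0 of 8 members and 0 of 14090 genes by edgeR, with Mcm7 the only member at an unadjusted p under 0.05 (0.83 ± 0.30 log2), where 5.51% of genes were, and DESeq2 called 0 members and 3 genes. A joint test over the 7 conditions other than 96 h called 0 of 8 members by edgeR (adjusted p 0.557 to 1) or DESeq2, with 3 at an unadjusted p under 0.05, where 0.0426% of all genes were called and 5.66% had such a p.

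**Figure D5:**
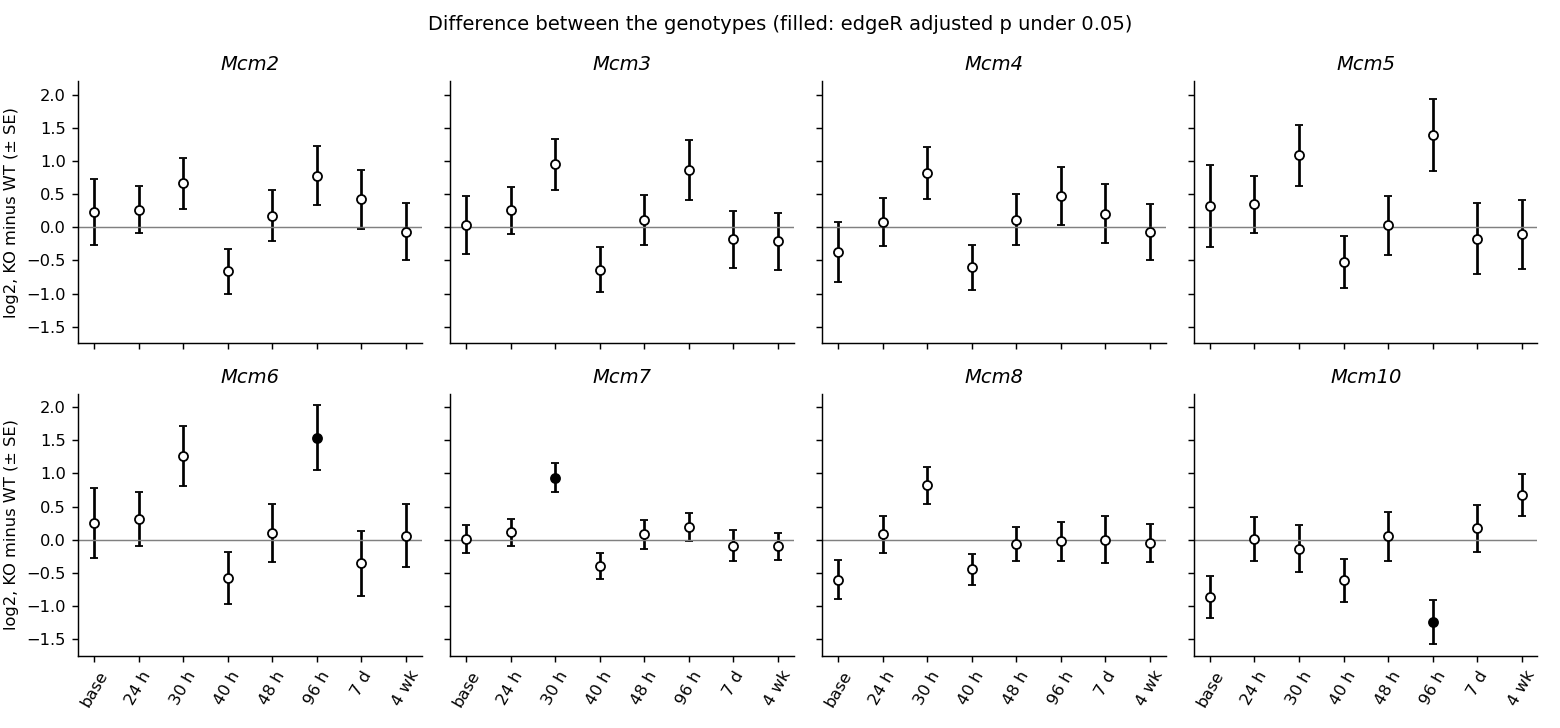
Difference between KO and WT (log2, ± SE) for each member in the 8 conditions; filled points passed edgeR at an adjusted p under 0.05. For Mcm2 to Mcm8 the points lie above 0 at 30 h (0.66 to 1.26) and below 0 at 40 h (-0.67 to -0.40).

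Outside this window few differences between the genotypes stood out. At baseline, 24 h, 48 h, 7 days and 4 weeks edgeR and DESeq2 each called 0 of 8 members, with 1, 0, 0, 0 and 1 members at an unadjusted p under 0.05, and edgeR called 0.0852%, 0.0426%, 0.135%, 0.135% and 0.22% of all genes. The shares of all genes at an unadjusted p under 0.05 were 7.08%, 3.36%, 4.98%, 5.49% and 4.82%. Both members with an unadjusted p under 0.05 were Mcm10, at -0.86 ± 0.32 log2 at baseline (edgeR adjusted p = 0.555) and 0.67 ± 0.32 log2 at 4 weeks (edgeR adjusted p = 1). At baseline Mcm4, Mcm8 and Mcm10 had every KO library below every WT library, as 7.07% of all genes did. In the same libraries 12 of 12 Kupffer cell genes had higher estimates in KO, at 137 to 212 CPM summed in WT and 232 to 328 CPM in KO, and so had 11 of 11 endothelial genes, at 231 to 290.4 CPM and 301 to 334 CPM. Of 9 neutrophil and monocyte genes tested 8 had higher estimates in KO, at 15.9 to 27.0 CPM summed in WT and 32.2 to 41.0 CPM in KO. S100a8, Retnlg and Chil3 were at 0 in every WT baseline library, and Retnlg in every KO baseline library too. Of 7 lymphocyte genes 6 had higher estimates in KO, at 3.80 to 5.20 CPM in WT and 5.31 to 8.50 CPM in KO. The part of these markers in the result was not tested.

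Among the libraries labelled by genotype at 96 h, Mcm6 was higher under the KO label and Mcm10 lower, where 7.22% of genes were called higher and 7.08% lower, 14.3% in all. At an unadjusted p under 0.05 were 3 members, where 28.6% of genes were. Mcm6 stood at 4.14, 10.6 and 13.3 CPM under the KO label and 3.78, 3.12 and 2.84 CPM under the WT label (1.54 ± 0.48 log2, edgeR adjusted p = 0.031). Mcm10 stood at 15.5, 37.3 and 38.6 CPM against 52.9, 72.2 and 92.4 CPM (-1.24 ± 0.33 log2, edgeR adjusted p = 0.0105). Against KO baseline, Mcm5 and Mcm6 were called higher and Mcm10 lower (1.35 ± 0.53, 1.44 ± 0.47 and -0.95 ± 0.33 log2, edgeR adjusted p = 0.0398, 0.014 and 0.0177), where 21.9% of genes rose and 22.1% fell. The library labelled KO 96 h replicate 1 was apart, with Mcm5 at 0.991 CPM against 6.63 and 8.55 CPM in the other two. Without it Mcm6 was still called between the labels' groups (edgeR adjusted p = 0.0144) and Mcm10 was not (0.0731), nor was it against KO baseline (0.15). The Mcm6 call was lost without any 1 of the other 5 libraries (edgeR adjusted p 0.0633 to 0.116), and the Mcm10 call also without WT replicate 3 (0.0524). Against KO baseline, the Mcm5 call was lost without any library other than replicate 1 (0.0736 to 0.227), the Mcm6 call without KO baseline replicate 2 or KO 96 h replicate 3 (0.0591 and 0.0796) and the Mcm10 call without KO baseline replicate 1 or 3 (0.127 and 0.0669). In the same libraries the hepatocyte sum was 213203 to 360408 CPM under the KO label and 116890 to 186076 CPM under the WT label, Kupffer cell genes were at 486 to 866 and 299 to 416 CPM, and neutrophil and monocyte genes at 85.2 to 134 and 56.1 to 63.3 CPM. Lymphocyte genes were at 6.61 to 8.91 CPM under the KO label and 5.97 to 6.53 CPM under the WT label. The part of all these markers in the differences was not tested.

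Other replication genes rose alongside the MCM genes. Of 22 genes of origin licensing and helicase activation, 19 rose and 0 fell at 40 h in WT (median 2.63 log2), where 19.2% of all genes rose, and 18 rose and 0 fell at 30 h in KO (median 2.17 log2), where 17% did. The largest fitted changes at 40 h in WT were those of Cdc6, a loader of the ring, Orc1, a subunit of the origin recognition complex, and Ticrr, which helps to activate the helicase, all called by edgeR. They had 2, 0 and 1 counts in all over the 3 WT baseline libraries, so no fitted fold is given, and mean levels of 13.4, 1.65 and 6.62 CPM at 40 h. Orc1 was at least 22.4-fold higher at 40 h than a floor of 3 counts over the baseline group. Of 24 genes of fork polymerases, clamp and loader, 23 rose at 40 h in WT (median 2.85 log2), and of 16 mitotic cyclins and kinases all 16 rose (median 7.43 log2, and 7.34 log2 with Cdc25c, at 0 in every WT baseline library, at its lower bound). At 24 h in WT 7, 6 and 1 genes of these lists rose, where 10.5% of all genes did, with medians of 0.48, 0.52 and 0.22 log2 (the last 0.26 log2 without Cdc25c, at 0 in both groups), beside 1.81 log2 for the MCM genes. No test compared the lists with each other.

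Between the genotypes at 30 h, 3 of the 22 licensing genes were higher in KO by edgeR: Dbf4, the activator of the kinase that fires origins, at 1.30 ± 0.31 log2, Gins1, a partner of the ring in the active helicase, at 0.94 ± 0.23 log2, and Topbp1, a scaffold for helicase assembly, at 0.77 ± 0.20 log2. The fork list had 8 of 24 higher and the mitotic list 7 of 16, where 0.937% of all genes were called in either direction. The list medians were 0.68, 0.84 and 1.69 log2, beside 0.88 log2 for the MCM genes and 0.008 over all genes. For the change from 30 to 40 h, 3 licensing genes passed, Orc6 at -1.29 ± 0.31 log2, Gins1 at -1.26 ± 0.30 log2 and Topbp1 at -1.19 ± 0.26 log2, where 0.582% of all genes passed. At 96 h as labelled all 16 mitotic genes were called higher under the KO label (median 2.34 log2), while 1 of 22 licensing genes and 1 of 24 fork genes were, where 7.22% of all genes were called higher.

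The genes outside the family whose course was most like the mean of the scaled member courses over the 16 group means were Wdhd1, a fork adaptor (r = 0.986), Rpa2, a subunit of the single-strand binding complex (0.981), Cdt1, which loads the ring (0.981), Chaf1a, a chaperone that places histones on new DNA (0.980), Hells, a chromatin remodeller (0.980), and Timeless, a fork protection factor (0.979). Wdhd1 had means of 1.45 CPM at baseline, 12.6 CPM at 30 h and 13.4 CPM at 40 h in WT, and 1.35, 17.3 and 8.27 CPM in KO. These r values describe 16 means that share libraries and scaling.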

How the data were processed

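Poly(A) libraries of mouse liver were read as 100 bp paired ends, per the labels' protocols. The authors deposited whole-number counts per gene and FPKM (fragments scaled by transcript length and library size). Per the submitters' processing notes the tools were FastQC 0.11.5, Trimmomatic, TopHat2 2.1.0, Cufflinks 2.2.1, HTSeq and DESeq2 on mm10; parameters, annotation and strand setting were not given in the sources used here. Low FPKM values depend on how transcripts were assigned.

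Genes were matched by Ensembl ID. Counts were scaled by TMM and fitted in edgeR 4.0.16 (R 4.3.3) with 1 mean per group over all 45 libraries, after its expression filter (14090 of 19966 genes, at least 99.944% of each library's counts, all 8 members kept). Alternatives were DESeq2 1.42.0, limma 3.58.1 on log2(FPKM + 0.1) or log2(FPKM + 1), other scaling and filters, a replicate block, and each library left out. Standard errors were taken from each fold change and its F statistic. The code was checked on simulated counts. Members and gene lists were chosen with earlier results of these data known. All members are named; from the licensing list up to 3 called genes per direction with the largest change are named, and the 6 genes with the highest Pearson r (mean log2 CPM of at least 1). Of 155 list symbols 153 matched.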

Additional observations from a re-analysis of the deposited data

Results flagged for a closer look

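The estimated difference between KO and WT in Mcm7 went from 0.94 ± 0.22 log2 to -0.40 ± 0.19 log2, a change of -1.33 (SE 0.29) by a test of the interaction of genotype and time in edgeR (adjusted p = 0.0254). The sign of this change held for all 8 members, and the other 7 did not pass the threshold. The Mcm7 call was lost without any 1 of 7 of the 11 libraries (edgeR adjusted p 0.0569 to 0.444).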

How the results depend on the processing

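Member counts called, and the direction of each named call, were recomputed under other settings and with each library left out. No called member changed sign. Of the single-gene values under other settings 750 kept their side of the threshold, 24 lost it and 6 gained it; with a library left out these were 500, 38 and 2. The counts of members called from 24 to 48 h against baseline held within 1.5 times in all settings, with 6 to 7 in WT at 30 h and KO at 24 h as libraries were left out.

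KO against WT at 30 h gave 1 member, 2 with limma on log2(FPKM + 1), 3 with the compared libraries alone and 0 to 1 with a library left out. At 96 h as labelled it gave 2, 1 with each of 3 FPKM settings, 0 with the compared libraries alone and 0 to 2 with a library left out. The change from 30 to 40 h gave 1, 2 with DESeq2, 2 with limma on log2(FPKM + 1) and 0 to 3. WT at 7 days gave 1, 2 without the 96 h libraries, 3 with DESeq2, 0 with limma on log2(FPKM + 1), 0 with the compared libraries alone and 0 to 2. KO at 96 h against baseline gave 3, 1 with each FPKM setting, 1 with the compared libraries alone and 1 to 3. KO at 7 days gave 1, 0 with no filter on low counts, 3 with DESeq2, 0 with each FPKM setting, 3 with the compared libraries alone and 0 with any library left out. KO at 4 weeks gave 0, and 1 without the 96 h libraries, with DESeq2 or with the compared libraries alone. The cause of these moves was not tested. Where members were gained, all genes called were 103 of 12812 at 30 h with the compared libraries alone. For WT at 7 days they were 647 of 14009 without the 96 h libraries and 709 of 19966 with DESeq2. For KO they were 1055 of 19966 at 7 days with DESeq2. At 4 weeks they were 1680 of 14009 without the 96 h libraries and 1512 of 19966 with DESeq2. The next paragraph holds the other such counts, except those with a library left out.

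With the replicate block the KO 7 day count was 0 (Mcm2 adjusted p = 0.0534 in edgeR), and no other member count moved by over 1.5 times. In 0 of the 16 comparisons with 3 same-numbered pairs did every pair correlate over 0.1, so the main fit did not pair samples by number. The pairs of 40 h and baseline, which share a column prefix, correlated at 0.0898 to 0.157 in WT and -0.064 to 0.159 in KO. The 2 pairs of KO and WT at 48 h correlated at 0.233 and 0.251. Whether same-numbered samples share mice cannot be told from these values. FPKM scaling moved the median of all genes by up to 0.212 log2 (WT at 48 h, pseudocount 0.1) and -0.192 (KO at 96 h). Over all genes, the counts called that moved by over 1.5 times between settings follow. Limma at FPKM pseudocounts of 0.1 and 1 and of 0.1 with no filter is named L1, L2 and L3, and the compared libraries alone A. The settings covered unlike numbers of genes, so their counts are not like for like. These were 14090 in the main fit, 19966 with DESeq2 or no filter and 14009 without the 96 h libraries. They were 16684 with L1 and L2, 28520 with L3 and 12056 to 13017 with A. KO against WT called 12 at baseline (DESeq2 32, L1 39, L2 25, L3 54), 6 at 24 h (DESeq2 16, L1 21, L2 15, L3 36, A 2), 132 at 30 h (DESeq2 231, L2 284, L3 232), 20 at 40 h (L3 38), 19 at 48 h (L1 29, L2 40, L3 168, A 0), 2014 at 96 h (L1 1309, L2 1104, L3 1037, A 206), 19 at 7 days (L3 114, A 7) and 31 at 4 weeks (L3 50, A 13). WT against baseline called 2490 at 30 h (A 1537), 4373 at 48 h (A 2829), 3858 at 96 h (A 1995), 501 at 7 days (A 71) and 165 at 4 weeks (277 without the 96 h libraries, DESeq2 296, L2 103, L3 109, A 69), and KO 6200 at 96 h (A 4122), 783 at 7 days (A 397) and 1208 at 4 weeks (A 2167). The change from 24 to 30 h called 0 (DESeq2 3, L3 8), that from 30 to 40 h 82 (replicate block 54, DESeq2 201, L1 29, L2 214, L3 34) and the joint test 6 (no filter 3, replicate block 2, without the 96 h libraries 3, DESeq2 44, L1 0, L3 41). Baseline counts of 18 to 33 reads for Mcm5 or Mcm2 in a WT library limit the precision of their large fold changes.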

Other observations

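The 6 genes whose group means followed Mcm10 most closely were not replication genes; this set was chosen after its values were seen. They were Ndufb10, a subunit of respiratory complex I (r = 0.922 over the 16 group means), Fzd8, a Wnt receptor (0.912), Exosc5, an RNA exosome subunit (0.910), Dmac2, an assembly factor of complex I (0.904), Mif, a cytokine (0.901), and Aup1, a protein of lipid droplets (0.896). Ndufb10 ranged less than Mcm10, with WT means of 104 CPM at baseline, 68.5 CPM at 24 h, 86.6 CPM at 30 h, 71.8 CPM at 40 h and 65.3 CPM at 48 h. Mcm10 had WT means of 108, 24.8, 72.2, 37.8 and 21.3 CPM at these times.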
